A study of Mus musculus with 17 samples.

Results

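The 9 lines of 32D cells that carry a mutant FLT3 receptor and grow without IL-3 were compared with the parental 32D cells they were made from. 32D is an immortalised mouse myeloblast-like line that depends on IL-3. The members were chosen by label: 9 arrays of cells transduced with mutant human FLT3 and 2 arrays of untransduced cells, 11 of the 17 arrays of the series. Each mutant array came from a different FLT3 internal tandem duplication (ITD), a duplicated stretch of the receptor's own coding sequence, and the lines are numbered here 1 to 9. All lines grew in RPMI medium with 10% fetal calf serum. The parental cells received mouse IL-3 at 1 ng/mL. The ITD lines were made by ecotropic retroviral transduction with the pLXRN vector, were moved to medium without IL-3 soon after transduction, and were used as polyclonal populations. A difference between ITD lines and parental cells therefore holds the mutant receptor, the transduction, the outgrowth without IL-3 and the absence of IL-3 at once, and these cannot be told apart in this comparison. The 6 remaining arrays are given only side by side: 2 of cells with the empty vector and 2 with human wild-type FLT3, both grown with IL-3 at 1 ng/mL under G418, and 2 of wild-type FLT3 cells grown with FLT3 ligand (FL) at 20 ng/mL, for which the growth text does not say outright whether IL-3 was also present. Whether the parental pair came from separate lines or from cultures of 1 line is not given in the sources used here, so p-values measure the spread between these samples, which may be technical.

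The receptor tyrosine kinase FLT3 is carried by early blood progenitors and is normally switched on by its ligand. ITD mutations of acute myeloid leukaemia leave it active without ligand, and the mutant receptor signals through STAT5, RAS-ERK and PI3K-AKT. The IL-3 receptor, an α chain joined to a shared β chain, feeds the same 3 routes in 32D cells, so a mutant FLT3 can replace IL-3 for growth.

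Values are log2 signals of an exon array, and the value of a gene is the mean of its probe sets, each of which reads about 1 exon. A difference is the ITD mean minus the parental mean on this log2 scale, with its standard error (SE) from limma, and a gene is called when its Benjamini-Hochberg adjusted p over all 20227 genes is under 0.05. Values near 4.6 lie at the level of the dimmest probe sets kept. Levels of different genes cannot be set against each other on this scale.

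Of 20227 genes, 3439 (17%) were called. Higher with ITD were 2080 genes (10.3% of those tested) and lower were 1359 (6.72%), so that 60.5% of the calls were rises. The shares of 10.3% and 6.72% are the background for each list count below. With each array centred on its median the split turned to 1619 higher and 1911 lower (45.9% higher), a shift of the median gene from 0.013 to -0.066. Changes of at least 2-fold were nearly balanced at 229 rises and 252 falls, and changes of at least 4-fold were mostly falls, with 9 rises and 36 falls. All 9 ITD arrays lay beyond both parental arrays for 4313 genes (21.3%), and beyond all 8 arrays of the other groups for 280 (1.38%). The former held for 3139 of the 3439 called genes. The naming rule required it of the largest changes, and required the latter of genes named as beyond all 8. For genes named that way, non-overlap is therefore no further support. Leaving out either parental array lowered the number of calls. Such a fit holds only 1 parental array, which by itself lowers the number of genes that can pass. Correlation over all genes, as a description, was 0.9833 between the parental arrays, 0.9656 to 0.9881 between ITD arrays and 0.9479 to 0.9667 between ITD and parental arrays.

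**Figure D1:**
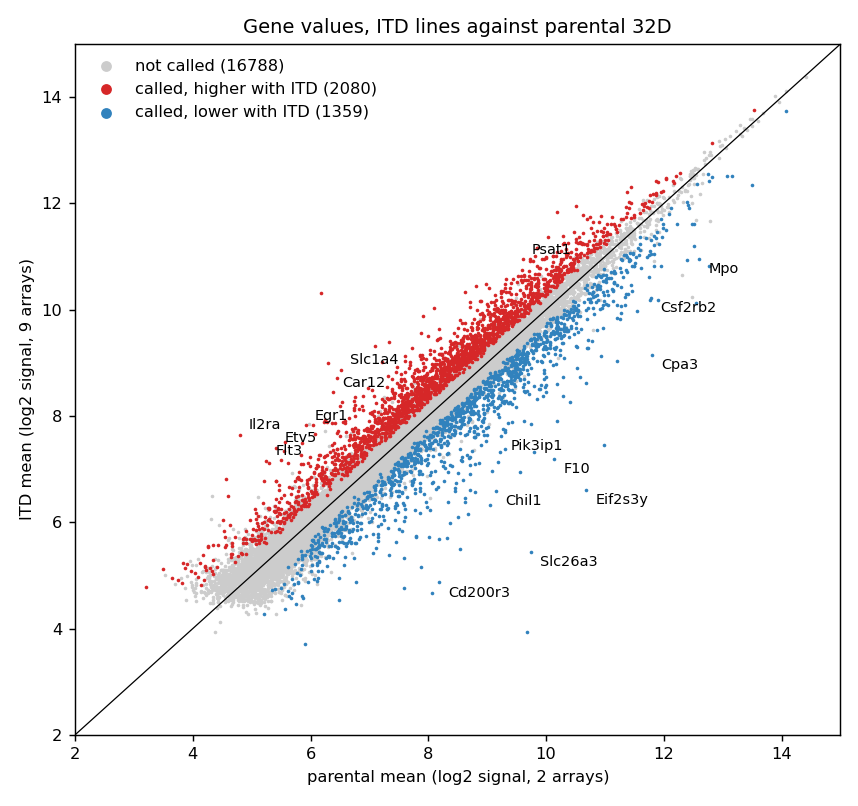
Mean log2 signal of each of 20227 genes in the 2 parental arrays (x axis) and the 9 ITD arrays (y axis), with called rises in red (2080), called falls in blue (1359), genes not called in grey and the line of equality. Slc26a3, Eif2s3y and Cd200r3 lie far below the line and Il2ra and Slc1a4 far above it.

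Flt3, the introduced receptor, checks the labels. Its gene value was 5.37 and 5.12 on the parental arrays and 7.08 to 7.32 (median 7.12) on the ITD arrays, a difference of 1.91 ± 0.09 (adjusted p 1.37e-09). Every ITD array was above every array of the other groups, whose means were 5.19 with vector, 6.76 with wild-type FLT3 and 6.89 with wild-type FLT3 and FL. The rise was uneven over the 30 Flt3 probe sets. In 10 of them all 9 ITD arrays were above both parental arrays, in 0 were they below, and in 4 the difference was at least 4. The steepest probe set read 4.24 in parental cells and 12.55 with ITD, a difference of 8.31. Mouse probe sets read a human transgene here, so the gene mean is no measure of how much receptor RNA the lines held.

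The chains of the IL-3 receptor were lower in the ITD lines. Csf2rb2, the β chain that in mice serves IL-3 alone, read 11.88 and 11.71 on the parental arrays and 9.39 to 10.87 (median 10.2) with ITD. The groups did not overlap, and Csf2rb2 fell by 1.57 ± 0.23 (adjusted p 0.000169, 2.98-fold). Csf2rb, the β chain shared with the GM-CSF and IL-5 receptors, read 11.51 and 11.41 against 9.49 to 11.52 (median 10.29), so that 1 or more lines overlapped the parental pair. Its difference was -1.10 ± 0.30 (adjusted p 0.0157; 0.14 without parental array 1 and 0.118 without parental array 2). Il3ra, the α chain that binds IL-3, read 10.06 and 10.25 against 8.73 to 9.45 (median 9.19) and fell by 0.99 ± 0.14 (adjusted p 0.000111), again with no overlap. Csf2rb and Csf2rb2 are near-identical copies, and the array may not fully separate them. Beside these values, Csf2rb2 averaged 10.69 with vector, 9.06 with wild-type FLT3 and 9.33 with FL, and Il3ra 9.17, 9.00 and 8.88.

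Other cytokine receptors moved both ways. Of 15 listed IL-3 and related receptors, 2 rose (Flt3, Il2ra) and 5 fell, with a median difference of -0.10. Flt3 is the introduced receptor, so its rise follows from the design and says nothing about the other receptors. Shares over all genes were 10.3% higher and 6.72% lower. Epor, the erythropoietin receptor, fell from 8.82 and 8.84 to 7.25 to 8.17 (median 7.57), by 1.17 ± 0.18 (adjusted p 0.000236). Csf1r, the macrophage growth factor receptor, fell by 0.94 ± 0.09 (adjusted p 4.68e-06). Csf2ra, the α chain of the GM-CSF receptor, differed by -0.10 ± 0.15 and Csf3r, the G-CSF receptor, by -0.35 ± 0.29, neither of which passed the test. Il2ra, the IL-2 receptor α chain and a known STAT5 target, had the largest rise among the genes named by the rule, 2.86 ± 0.89 (adjusted p 0.0365). It read 4.53 and 5.06 in parental cells and 5.32 to 10.76 (median 7.3) with ITD, with line 1 highest and line 9 lowest. The call was lost without parental array 1 (difference 2.59) and without parental array 2 (3.12). It was also lost with only the 11 ITD and parental arrays (adjusted p 0.078) and with no filter on dim probe sets (0.0559). Il2ra was 8.93 with vector, 8.80 with wild-type FLT3 and 9.34 with FL, above the ITD median in each.

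STAT5 is the transcription factor that IL-3 and mutant FLT3 share most directly. Over all genes tested, 10.3% were called higher and 6.72% lower. Among 16 listed STAT5 targets 8 rose and 1 fell, with a median difference of 0.35 against 0.013 over all genes; 3 rises and 1 fall remained called without either parental array alone, and 6 rises and 1 fall with arrays centred on the median. Id1, an inhibitor of differentiation factors, rose from 8.53 and 8.50 to 9.27 to 10.02 (median 9.63), by 1.14 ± 0.14 (adjusted p 3.19e-05). Bcl2l1, which encodes the survival protein Bcl-xL, read 6.57 and 6.46 against 7.09 to 7.61 (median 7.39) and rose by 0.87 ± 0.13 (adjusted p 0.000235). Ccnd2, cyclin D2, rose from 8.79 and 8.89 to 9.47 to 9.88 (median 9.66), by 0.82 ± 0.10 (adjusted p 1.98e-05). None of these ITD ranges overlapped the parental pair. Osm, the cytokine oncostatin M, rose by 0.87 ± 0.19 (adjusted p 0.00416), a call that missed the threshold without parental array 1 (0.0625) or 2 (0.057).

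The feedback inhibitors of the JAK-STAT route were less firm. Cish, a feedback inhibitor of cytokine receptors, read 8.23 and 8.16 in parental cells and 8.09 to 9.58 (median 9.32) with ITD, a difference of 0.97 ± 0.25 (adjusted p 0.012; 0.0917 and 0.135 without parental array 1 or 2). Line 4 alone stood at the parental level, at 8.09, and the other 8 lines were at 9.01 or above. Socs3, another inhibitor of this family, rose by 0.61 ± 0.17 (adjusted p 0.019; 0.0763 and 0.242 without parental array 1 or 2). Socs2 differed by 0.37 ± 0.13 and was not called (adjusted p 0.0652). The fall was that of Bcl6, a repressor that STAT5 is known to turn down: 8.41 and 8.11 in parental cells against 6.24 to 7.66 (median 6.63), a fall of 1.48 ± 0.29 (adjusted p 0.00164). Bcl6 stood at 8.41 with vector and at 7.44 with wild-type FLT3. Cish stood at 8.85 with vector, 9.19 with wild-type FLT3 and 9.69 with FL.

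STAT5 binds the palindrome TTCNNNGAA, in which N is any base and which reads the same on both strands. Of the 16 STAT5 targets, 11 had a promoter entry in the RefSeq table (build GRCm38.p6, 250 bases before to 50 after the start), and 4 of the 11 (36.4%) held the motif, against 8.77% of 15535 tested genes with an entry and 8.3% of all 32851 promoters. The genes were listed as known STAT5 targets, so a higher share may follow from that choice. It is no evidence on STAT5 in these lines. The 3 called genes with a match are shown, on the strand of the gene, 5′ to 3′, with the motif in capitals, because 2 of them encode inhibitors that rose and 1 the repressor that fell. Bcl6 lies at chr16:23981234-23981533 on the minus strand, with matches 168, 122 and 88 bases before the start; the other Bcl6 start in the table holds 1 match. Cish lies at chr9:107296409-107296708 on the plus strand, with matches at bases 1 and 12 after the start. Socs3 lies at chr11:117969317-117969616 on the minus strand, with 1 match 154 bases before the start.
Bcl6: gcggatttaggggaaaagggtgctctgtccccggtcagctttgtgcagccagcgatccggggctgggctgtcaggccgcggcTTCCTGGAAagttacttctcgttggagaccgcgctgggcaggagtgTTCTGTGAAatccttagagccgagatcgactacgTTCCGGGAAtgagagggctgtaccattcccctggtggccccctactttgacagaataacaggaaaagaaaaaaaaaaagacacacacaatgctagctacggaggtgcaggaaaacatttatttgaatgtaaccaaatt
Cish: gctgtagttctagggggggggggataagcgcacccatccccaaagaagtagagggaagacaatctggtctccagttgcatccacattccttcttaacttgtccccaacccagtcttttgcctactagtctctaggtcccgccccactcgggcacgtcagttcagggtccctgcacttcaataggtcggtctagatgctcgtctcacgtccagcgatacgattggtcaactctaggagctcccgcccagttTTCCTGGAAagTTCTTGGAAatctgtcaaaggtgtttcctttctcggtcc
Socs3: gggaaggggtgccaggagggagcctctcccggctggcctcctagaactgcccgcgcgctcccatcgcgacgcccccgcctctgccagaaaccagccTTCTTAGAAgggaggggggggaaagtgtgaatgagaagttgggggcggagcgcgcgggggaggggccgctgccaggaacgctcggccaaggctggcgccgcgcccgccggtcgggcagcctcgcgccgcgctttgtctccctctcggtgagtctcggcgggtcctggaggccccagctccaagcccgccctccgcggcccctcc
A match describes these letters and is not evidence of binding, and the fourth gene with one, Gzmb, was not called (-1.16 ± 0.56, adjusted p 0.187).

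Some genes that answer ERK signalling rose in the ITD lines, among them Etv5 and Dusp6. The background over all genes was 10.3% called higher and 6.72% lower. Of 15 listed ERK feedback genes 7 rose and 0 fell (5 rises without either parental array alone, and 5 with centred arrays), while the list median was only 0.12. Etv5, an ETS transcription factor induced by ERK, read 5.46 and 5.35 in parental cells and 7.18 to 7.75 (median 7.31) with ITD, a rise of 1.99 ± 0.14 (adjusted p 2.28e-07). Dusp6, the phosphatase that switches ERK off, rose from 8.70 and 8.73 to 9.72 to 10.41 (median 10.16), by 1.44 ± 0.15 (adjusted p 7.48e-06). Dusp4, a related nuclear phosphatase, read 7.73 and 7.49 against 8.43 to 9.71 (median 9.0) and rose by 1.42 ± 0.26 (adjusted p 0.000979). In these 3 genes no ITD array overlapped a parental one, which the naming rule required of Etv5 and Dusp4. Spred1 and Spred2, inhibitors of RAS-RAF signalling, rose by 1.16 ± 0.10 (adjusted p 1.41e-06) and 1.34 ± 0.12 (adjusted p 1.8e-06). Dusp4 and Spred1 were also above all 8 arrays of the other groups. Dusp6 in contrast stood at 8.85 with vector but at 10.28 with wild-type FLT3 and 10.37 with FL. Sprouty genes, inhibitors of the same route, were not called: Spry1 differed by -0.02 ± 0.11, Spry2 by 0.12 ± 0.11 and Spry4 by -0.14 ± 0.20. Cyclin D1, an ERK target in many cells, differed by -0.16 ± 0.18 (Ccnd1, not called).

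Among immediate early genes, which respond to signalling within minutes, 3 Egr genes rose. Calls over all genes were 10.3% higher and 6.72% lower. Egr1 read 5.97 and 5.86 in parental cells and 7.35 to 8.11 (median 7.9) with ITD, a rise of 1.91 ± 0.15 (adjusted p 5.39e-07, 3.77-fold), and every ITD array was above all 8 others, which averaged 6.19 with vector, 6.54 with wild-type FLT3 and 6.79 with FL. Egr2 rose from 5.63 and 5.36 to 6.33 to 7.63 (median 7.28), by 1.67 ± 0.25 (adjusted p 0.000183), and Egr3 rose by 0.63 ± 0.17 (adjusted p 0.0194). Ier2 rose by 1.01 ± 0.15 (adjusted p 0.000141). Among AP-1 genes, Fosb fell by 0.35 ± 0.11 (adjusted p 0.0438), whereas Fos differed by 0.11 ± 0.45 and Jun by -0.50 ± 0.52, both not called. Dusp1, an early phosphatase gene, fell by 0.82 ± 0.19 (adjusted p 0.00637; 0.0606 and 0.0987 without parental array 1 or 2). In all, 5 of 15 rose and 2 fell, with a median of 0.06 that became -0.02 with centred arrays, and 3 rises and 0 falls were called without either parental array alone. A list of genes sensitive to handling of cells, which shares Egr1, Atf3, Fosb and Dusp1 with this one, had 3 rises and 2 falls among 11, so the 2 lists are not separate evidence and the part of handling in these values was not tested.

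**Figure D2:**
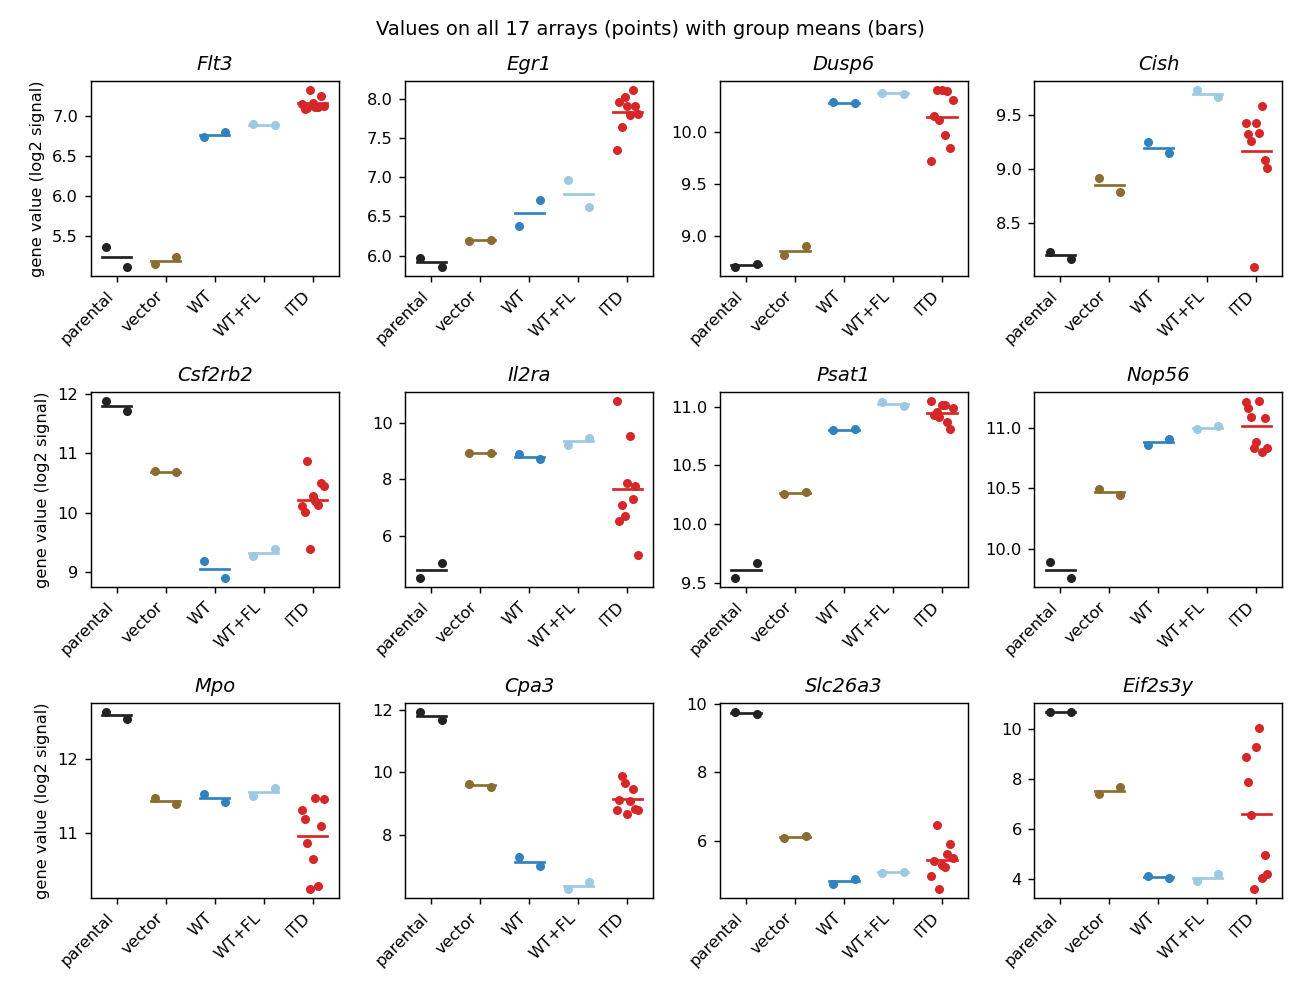
Log2 gene values of 12 named genes on all 17 arrays (points, 1 per array) with group means (bars), by group on the x axis, each panel with its own y scale. The ITD points of Flt3 and Egr1 lie above all others, those of Psat1 and Nop56 above both parental points and around those of the wild-type groups, and those of Il2ra and Eif2s3y are spread widely.

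The lists with the largest share of rises were those of ribosome production and of amino acid supply. Of 18 measured genes for ribosome biogenesis, 16 rose and 0 fell (15 rises without parental array 1, 14 without parental array 2), with a median difference of 0.87 and a range of 0.28 to 1.42. Polr1b, a core subunit of RNA polymerase I, read 6.70 and 6.77 in parental cells and 7.68 to 8.5 (median 8.1) with ITD, a rise of 1.42 ± 0.20 (adjusted p 0.000106). Nop56 and Nop58, core proteins of the particles that methylate ribosomal RNA, rose by 1.19 ± 0.11 (adjusted p 1.89e-06) and 1.20 ± 0.15 (adjusted p 4.25e-05); Nop56 was 9.89 and 9.76 against 10.8 to 11.22 (median 11.08). Dkc1, which modifies uridines of ribosomal RNA, rose by 1.16 ± 0.13 (adjusted p 1.07e-05), and Npm1, the nucleolar protein often mutated beside FLT3 in leukaemia, by 0.55 ± 0.07 (adjusted p 6.78e-05). Fbl and Wdr12 did not pass (0.42 ± 0.19 and 0.28 ± 0.14). Myc, which drives transcription of these genes, read 11.43 and 11.45 against 12.03 to 12.52 (median 12.34) and rose by 0.86 ± 0.11 (adjusted p 4.09e-05). Mdn1, the ATPase that matures the large ribosomal subunit, rose by 1.27 ± 0.12 (adjusted p 1.78e-06) and lay above all 8 other arrays in every ITD line, as did Usp36, a nucleolar deubiquitinase, which rose by 1.47 ± 0.14 (adjusted p 1.89e-06).

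In the amino acid response, the ATF4-driven supply of amino acids, 14 of 19 genes rose and 1 fell (13 rises and 1 fall without either parental array alone), with a median of 0.94. The serine pathway enzymes Phgdh and Psat1 rose by 1.16 ± 0.07 (adjusted p 7.43e-08) and 1.35 ± 0.07 (adjusted p 7.83e-09); Psat1 was 9.54 and 9.67 in parental cells against 10.81 to 11.05 (median 10.96). Psph, which completes serine synthesis, was the 1 gene that fell, by 0.57 ± 0.10 (adjusted p 0.000745). Pycr1, the last enzyme of proline synthesis, read 7.21 and 7.21 against 8.73 to 9.34 (median 9.13) and rose by 1.81 ± 0.15 (adjusted p 8.69e-07). Mitochondrial one-carbon enzymes rose too, Mthfd2 by 1.31 ± 0.12 and Shmt2 by 1.02 ± 0.11. Asns, asparagine synthetase, rose by 0.85 ± 0.10 (adjusted p 1.8e-05) and Atf4 itself by 0.69 ± 0.08 (adjusted p 9.94e-06). Trib3, an ATF4 target, rose by 1.63 ± 0.30 (adjusted p 0.000965), while the stress gene Ddit3 varied more between lines (0.95 ± 0.37) and was not called. Among transporters Slc7a11, which imports cystine, rose by 0.94 ± 0.16. Outside this list, Slc1a4, a carrier of neutral amino acids, read 6.71 and 6.32 against 8.56 to 9.33 (median 8.79) and rose by 2.36 ± 0.17 (adjusted p 2.28e-07), and Slc6a9, a glycine carrier, rose by 2.07 ± 0.15 (adjusted p 2.28e-07). In transduced cells grown with IL-3, Psat1 averaged 10.27 with vector and 10.80 with wild-type FLT3, Pycr1 8.25 and 8.54, and Nop56 10.47 and 10.88.

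**Figure D3:**
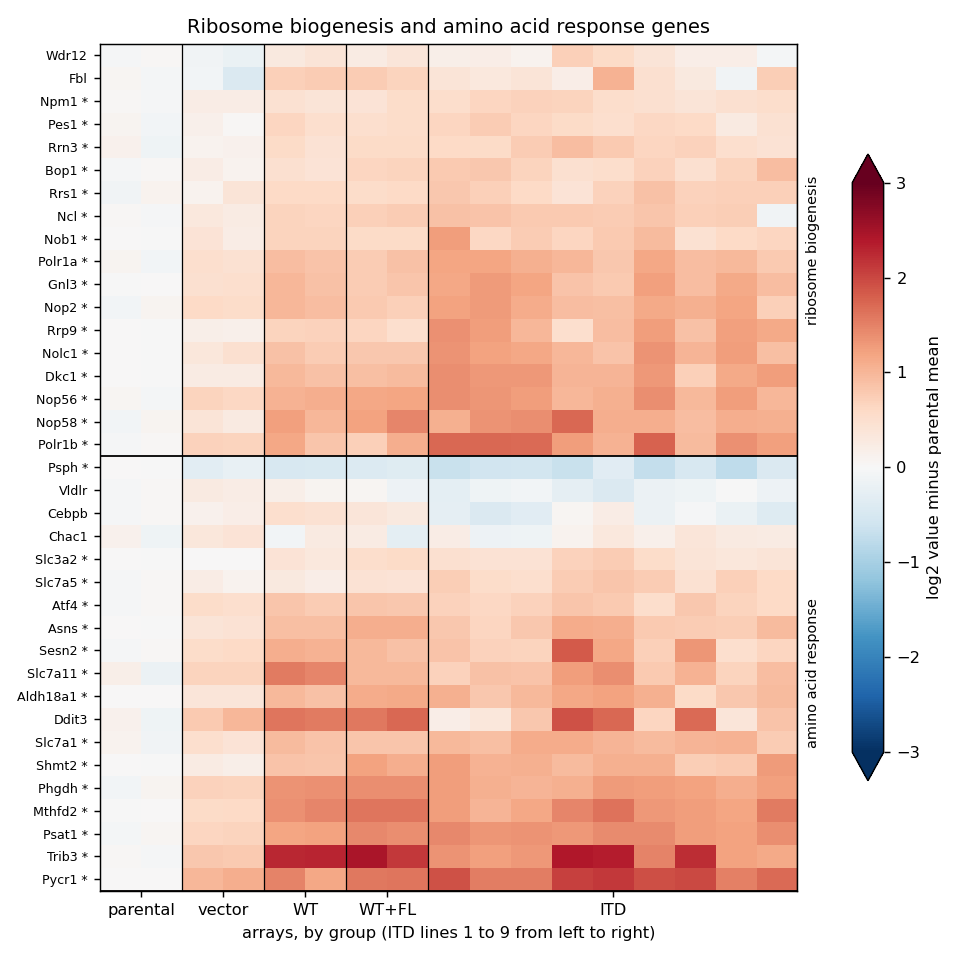
Log2 value minus the parental mean (colour scale, -3 to 3) for the 18 ribosome biogenesis and 19 amino acid response genes (y axis; an asterisk marks genes called in ITD against parental) on the 17 arrays (x axis, by group). Nearly all rows are red in the 9 ITD columns, with Psph blue, and paler red in the vector columns.

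Few cell cycle genes passed the test, where over all genes 10.3% were called higher and 6.72% lower. Of 20 DNA replication genes 3 rose and 0 fell with a median of 0.17, and of 17 mitosis genes 2 rose and 0 fell with a median of 0.26. Without parental array 1, limma called 1 replication gene and 0 mitosis genes (3 and 2 at an unadjusted p under 0.05), and without parental array 2, 0 of either list (4 and 2 at an unadjusted p under 0.05). Mcm10, an initiation factor, rose by 0.57 ± 0.11 (adjusted p 0.00163; 0.0589 without parental array 2), and Aurka, a mitotic kinase, by 0.57 ± 0.16 (adjusted p 0.0172; 0.0863 and 0.202 without parental array 1 or 2). The proliferation marker Mki67 differed by -0.15 ± 0.15 and Pcna by 0.07 ± 0.09, neither called. In glycolysis 5 of 19 rose and 2 fell, with a median of 0.03; with centred arrays or without parental array 1, 2 rose and 2 fell, and without parental array 2, 3 rose and 1 fell. Ldha, lactate dehydrogenase, rose by a small and even amount, 0.42 ± 0.05 (adjusted p 4.31e-05), from 12.09 and 11.98 to 12.37 to 12.55 (median 12.46). Slc16a3, which exports lactate, fell by 0.95 ± 0.15 (adjusted p 0.000333).

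Several cholesterol synthesis genes fell in the ITD lines. Of 15 measured, 7 fell and 1 rose, with a median of -0.27, and 3 falls and 0 rises were called without either parental array alone. Hmgcs1, an early enzyme of the pathway, read 9.12 and 9.23 against 8.01 to 8.77 (median 8.29) and fell by 0.85 ± 0.14 (adjusted p 0.000559). Fdps fell by 0.76 ± 0.14 (adjusted p 0.000932) and Dhcr7, the last enzyme, by 0.77 ± 0.15 (adjusted p 0.00215; 0.056 without parental array 1). Idi1 was the gene that rose, by 0.94 ± 0.24 (adjusted p 0.0119; 0.0851 and 0.142 without parental array 1 or 2). Fdps and Sqle were highest in line 9, where Sqle, at 10.73, stood at the parental level of 10.68 and 10.74.

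Of 16 apoptosis genes, Bcl2l1 rose and Bmf, a pro-death BH3-only gene, fell, by 0.50 ± 0.14 (adjusted p 0.0192; 0.123 and 0.172 without parental array 1 or 2). Bcl2l11, which encodes the BH3-only protein Bim that rises when IL-3 is withdrawn from dependent cells, differed by -0.11 ± 0.17, and Mcl1 by 0.14 ± 0.07, neither called. Of 16 genes listed as targets of FoxO transcription factors, 0 rose and 3 fell, where over all genes 10.3% were called higher and 6.72% lower. The list median was -0.07, and it was -0.09 without parental array 1 and -0.05 without parental array 2. Pik3ip1, an inhibitor of PI3K, read 9.23 and 9.24 in parental cells and 7.37 to 7.8 (median 7.65) with ITD, a fall of 1.60 ± 0.11 (adjusted p 2.13e-07) with no overlap. Pink1, a mitochondrial kinase, fell by 0.86 ± 0.09 (adjusted p 5.89e-06). Cdkn1b, which encodes the cell cycle inhibitor p27, differed by -0.45 ± 0.15 and just missed the threshold (adjusted p 0.0535). Pik3ip1 averaged 8.92 with vector, 7.63 with wild-type FLT3 and 7.25 with FL.

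Many genes of granulocytes and mast cells were lower in the ITD lines. Against the counts of these lists, 6.72% of all genes were called lower and 10.3% higher. Parental 32D cells express proteases of basophils and mast cells, eosinophil granule genes and neutrophil primary granule genes side by side. In bulk RNA, fewer cells of a type and less RNA per cell cannot be told apart. Primary granule genes, which mark promyelocytes, were lower nearly throughout: 7 of 8 fell and 0 rose, with a median of -0.81 (4 without parental array 1, 5 without parental array 2). Mpo, myeloperoxidase, read 12.64 and 12.55 in parental cells and 10.25 to 11.48 (median 11.1) with ITD, a fall of 1.64 ± 0.26 (adjusted p 0.000335, 3.11-fold). Lyz2, lysozyme, read 12.56 and 12.47 against 10.72 to 11.75 (median 11.17) and fell by 1.32 ± 0.18 (adjusted p 9.74e-05). Prss57, a serine protease, fell by 1.11 ± 0.22 (adjusted p 0.00188). Lyz2 in the ITD lines lay below all 8 other arrays, whereas Mpo averaged 11.44 with vector and 11.48 with wild-type FLT3. Prtn3, proteinase 3, did not pass (-0.49 ± 0.24, adjusted p 0.194), and Ctsg, cathepsin G, fell by only 0.38 ± 0.08 (adjusted p 0.00244; 0.0922 without parental array 1). Lyz1 and Lyz2 are close copies and may share signal.

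Late granule and mature neutrophil genes fell in 9 of 21 cases and rose in 1, with a median of -0.70. Without parental array 1, 4 fell and 0 rose, and without parental array 2, 4 fell and 1 rose. Ly6g, the surface marker of mature granulocytes, read 7.90 and 8.23 in parental cells and 3.72 to 5.81 (median 4.66) with ITD, near background, a fall of 3.41 ± 0.36 (adjusted p 6.95e-06, 2 probe sets). Camp, the cathelicidin of secondary granules, read 8.66 and 8.23 against 6.15 to 7.33 (median 6.46) and fell by 1.87 ± 0.24 (adjusted p 3.91e-05). S100a9, a subunit of calprotectin, read 12.10 and 11.69 against 9.04 to 10.93 (median 10.31) and fell by 1.70 ± 0.35 (adjusted p 0.0028; 0.0727 without parental array 1). Its partner S100a8 fell by 1.45 ± 0.40 (adjusted p 0.0188; 0.18 and 0.108 without parental array 1 or 2). S100a8 and S100a9 lay below all 8 other arrays in each ITD line, with S100a9 means of 12.34 with vector and 12.90 with wild-type FLT3. Ltf, lactoferrin, fell by 1.54 ± 0.47 (adjusted p 0.0332; 0.175 and 0.214 without parental array 1 or 2) and ranged from 6.69 to 9.51. Mmp8, a neutrophil collagenase, was the 1 rise, 0.97 ± 0.20 on a single probe set (adjusted p 0.00268). Without parental array 1 the difference was 0.86. With no filter on dim probe sets it was 0.17 and was not called (adjusted p 0.571).

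Basophil and mast cell genes fell in 6 of 18 cases and rose in 0, with a median of -0.44 (5 falls without either parental array alone). Cpa3, mast cell carboxypeptidase, read 11.92 and 11.67 in parental cells and 8.68 to 9.89 (median 9.08) with ITD, a fall of 2.64 ± 0.25 (adjusted p 2.18e-06, 6.24-fold). Cma1, a chymase, read 8.44 and 8.18 against 5.3 to 6.21 (median 5.64) and fell by 2.60 ± 0.21 (adjusted p 4.49e-07). Mcpt8, a basophil protease, read 12.59 and 12.48 against 8.7 to 10.98 (median 10.24) and fell by 2.41 ± 0.38 (adjusted p 0.00027). Each ITD array was below both parental arrays in these genes, which the naming rule required of Cpa3 and Cma1. Cd200r3, a receptor of basophils and mast cells, fell by 3.30 ± 0.48 (adjusted p 0.000141), to 3.89 to 6.53. Fcer1a, the IgE receptor α chain, ranged from 7.31 to 11.97 with ITD against 12.54 and 12.40, and its difference of -2.24 ± 0.86 was not called (adjusted p 0.0904). Tpsb2, a mast cell tryptase, differed by -0.01 ± 0.16 and Kit, at 5.50 on average in parental cells, by 0.21 ± 0.12, neither called. In the other transduced cells Cpa3 stood at 9.59 with vector, 7.16 with wild-type FLT3 and 6.39 with FL.

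Genes of the eosinophil list were lower on average, and its granule genes varied widely between ITD lines. The called members were 1 granule gene, Prg3, and 2 others, Alox15 and Cebpe. Alox15, a lipoxygenase, fell by 0.99 ± 0.24 (adjusted p 0.0089), and Cebpe is described with the transcription factors below. Of 7 measured 3 fell and 0 rose, with a median of -0.99, but limma called 0 without parental array 1 and 1 without parental array 2 (3 each at an unadjusted p under 0.05). Prg3, a granule major basic protein homologue, read 10.35 and 10.03 against 5.67 to 9.1 (median 8.31) and fell by 2.29 ± 0.60 (adjusted p 0.0131; 0.137 and 0.0972 without parental array 1 or 2). Prg2, the major basic protein, and Epx, eosinophil peroxidase, ranged from 7.96 to 11.71 and from 9.94 to 12.56 with ITD, against 12.32 and 12.30, and 12.81 and 12.75. All 9 lines were below the parental pair for both, yet neither gene was called (Prg2 -1.65 ± 0.66, adjusted p 0.102; Epx -1.11 ± 0.45, adjusted p 0.11). Both passed only without line 5, which was lowest (adjusted p 0.0227 for Prg2 and 0.0463 for Epx). Prg3 averaged 6.07 with vector, 4.52 with wild-type FLT3 and 4.94 with FL, all below its ITD mean of 7.90. Ear6, an eosinophil gene described below, averaged 5.23, 4.68 and 4.32, also below its ITD mean of 7.14. Alox15 and Cebpe in contrast averaged 6.50 and 11.45 with vector, above their ITD means of 6.03 and 11.04.

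**Figure D4:**
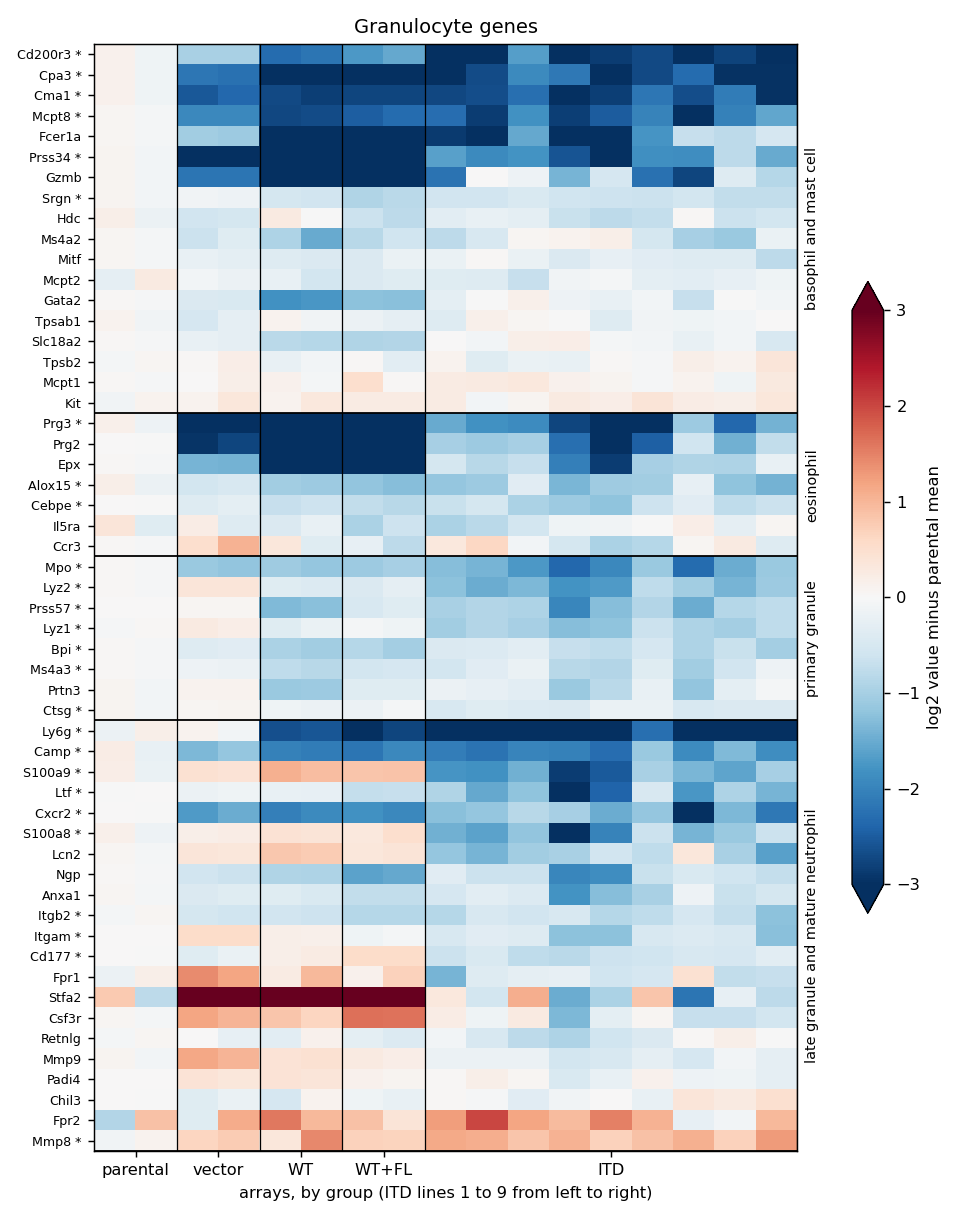
Log2 value minus the parental mean (colour scale clipped at -3 and 3) for the measured genes of 4 lists of granulocyte, mast cell and eosinophil genes (y axis; an asterisk marks genes called in ITD against parental) on the 17 arrays (x axis, by group). The ITD columns are blue for the primary granule genes and for Cpa3, Cma1, Mcpt8, Ly6g and Camp, and for S100a9 and Lyz2 the ITD columns are blue while the vector columns are pale or red.

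Monocyte and macrophage genes showed no common direction: 1 of 17 rose and 4 fell, with a median of -0.13 (1 and 3 without either parental array alone). The low-affinity IgG receptor Fcgr3 read 9.39 and 9.22 in parental cells against 6.67 to 7.88 (median 7.37) with ITD, fell by 1.93 ± 0.22 (adjusted p 1.75e-05) and lay below all 8 other arrays. The high-affinity receptor Fcgr1 went the other way, from 8.66 and 8.59 to 9.8 to 11.3 (median 9.97), a rise of 1.71 ± 0.33 (adjusted p 0.00167). Mpeg1, a macrophage pore protein, fell by 1.51 ± 0.28 (adjusted p 0.00126), and Adgre1, a macrophage surface receptor, by 1.41 ± 0.35 (adjusted p 0.00938; 0.0874 and 0.107 without parental array 1 or 2). Cd14 and Cx3cr1 differed by -0.35 ± 0.19 each and were not called. For all genes the called shares were 10.3% higher and 6.72% lower.

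Some transcription factors of granulocyte and monocyte fate fell, among them Spi1 and Cebpa, and most of those listed were not called. Spi1, which encodes PU.1, read 10.02 and 9.87 in parental cells and 8.85 to 9.29 (median 9.18) with ITD, a fall of 0.79 ± 0.11 (adjusted p 6.15e-05) that put every ITD array below all 8 others. Cebpa, the factor that commits cells to granulocytes, read 9.83 and 10.13 against 8.91 to 9.5 (median 9.31) and fell by 0.71 ± 0.13 (adjusted p 0.000763; 0.056 without parental array 2). Cebpd fell by 1.25 ± 0.21 (adjusted p 0.000473) and Cebpe, which drives secondary granule genes, by 0.75 ± 0.16 (adjusted p 0.00344; 0.0556 and 0.0512 without parental array 1 or 2). Runx1, mutated in some leukaemias, fell by 0.90 ± 0.21 (adjusted p 0.00687; 0.104 and 0.0606 without parental array 1 or 2). Of the 25 factors listed 4 rose (Myc, Egr1, Egr2 and Id1) and 6 fell, with a median of -0.16; 3 and 2 falls, and 4 rises each, were called without parental array 1 or 2. Gfi1, Irf8, Gata2 and Myb were not called (-0.49 ± 0.19, 0.07 ± 0.10, -0.16 ± 0.14 and -0.31 ± 0.16). Spi1 averaged 10.26 with vector, 9.74 with wild-type FLT3 and 9.72 with FL, and Cebpa 9.91, 9.08 and 8.80.

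The labelled cell type was checked on 6 markers of a myeloid progenitor line. Ptprc (CD45), Spi1, Cebpa, Mpo and Itgam averaged 9.15 or more in the ITD lines, although each was called lower than in parental cells. Ptprc fell by 0.59 ± 0.12 (adjusted p 0.00283; 0.098 without parental array 1) and Itgam by 0.70 ± 0.23 (adjusted p 0.0437; 0.211 and 0.238 without parental array 1 or 2), both to below all 8 other arrays. Kit, a stem and mast cell receptor, was low in both groups (5.50 and 5.71). Lymphoid and fibroblast genes, markers of cells that could be admixed, had low list means, and erythroid and megakaryocyte genes did not. Of 10 lymphoid genes limma called 0 (1 at an unadjusted p under 0.05) and 5 were below 6 in both groups, with list means of 5.95 to 5.99 on the parental arrays and 5.62 to 5.98 on the ITD arrays. Of 9 fibroblast genes 4 were below 6 in both groups, the list means were 5.91 to 5.97 and 5.72 to 6.06, and 1 gene was called, Pdgfrb, which fell by 1.01 ± 0.22 (adjusted p 0.00421; 0.0731 without parental array 2). Of 11 erythroid and megakaryocyte genes 1 rose and 2 fell (0 and 1 without either parental array alone), with list means of 8.80 to 8.85 and 7.98 to 9.09. Gata1 and Klf1, factors of that lineage, were not called (-0.66 ± 0.29 and -0.49 ± 0.28) and were lowest in line 7; without that line Gata1 had an adjusted p of 0.0104.

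The remaining lists are read against the background of 10.3% of genes called higher and 6.72% called lower. Of 13 interferon response genes 0 rose and 2 fell by small amounts, with a median of 0.08; limma called 0 without parental array 1 (1 at an unadjusted p under 0.05) and 1 fall without parental array 2. Of 12 dendritic cell and MHC class II genes 2 rose and 1 fell, and limma called 0 of the list without parental array 1 or 2 (2 and 3 at an unadjusted p under 0.05). Chemokine and cytokine genes fell in 5 of 18 cases and rose in 1, Osm, with a median of -0.31; 2 and 1 falls remained without parental array 1 or 2. Il4, a basophil cytokine, fell by 1.20 ± 0.21 (adjusted p 0.000829), and Ccl4 by 1.18 ± 0.26 (adjusted p 0.00375; 0.0648 without parental array 2). In the Wnt pathway 2 of 13 rose, both receptors; limma called 1 without parental array 1 and 0 without parental array 2 (1 at an unadjusted p under 0.05). Fzd4 rose by 1.00 ± 0.23 (adjusted p 0.00626; 0.169 without parental array 2), and Fzd1 by 0.43 ± 0.12 (adjusted p 0.0226; 0.082 and 0.273 without parental array 1 or 2), a value that became -0.0144 with no filter on dim probe sets. The targets Axin2 and Lef1 were not called (-0.04 ± 0.13 and 0.20 ± 0.12). Of 20 integrins and tetraspanins 8 fell and 0 rose (5 and 3 without parental array 1 or 2), at a median of -0.01. Itgb7, a homing integrin chain, read 8.87 and 8.94 against 7.59 to 7.98 (median 7.8), fell by 1.09 ± 0.11 (adjusted p 2.75e-06) and lay below all 8 other arrays, and Cd37, a leukocyte tetraspanin, fell by 0.86 ± 0.13 (adjusted p 0.000241).

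**Figure D5:**
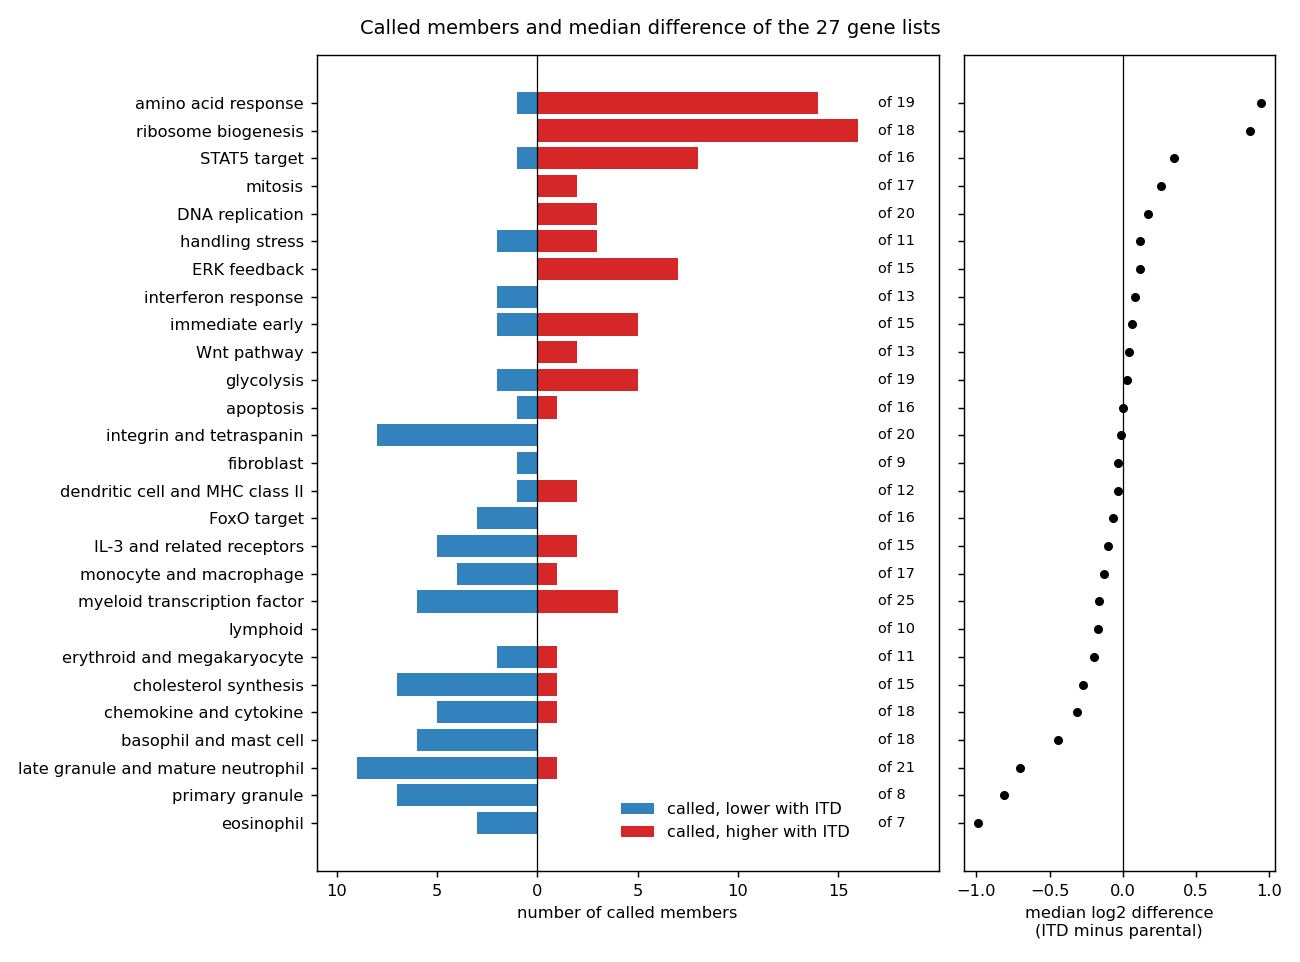
Left, the number of called members of each of the 27 gene lists that rose (red, right) or fell (blue, left) in ITD against parental, with the number measured; right, the list median of the log2 difference. Ribosome biogenesis (16 rises of 18) and amino acid response (14 of 19) stand at one end, and the primary granule (7 falls of 8) and eosinophil lists at the other.

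Outside the lists, the largest rises named by the rule included Gvin1, an interferon-inducible GTPase, which read 6.62 and 5.97 in parental cells and 7.92 to 9.55 (median 9.21) with ITD, a rise of 2.71 ± 0.32 (adjusted p 2.16e-05). Slfn2, a regulator of quiescence, rose by 2.29 ± 0.44 (adjusted p 0.0016), and Nupr1, a stress-induced chromatin protein, by 2.21 ± 0.33 (adjusted p 0.000183). Car12, a membrane carbonic anhydrase, read 6.56 and 6.2 against 8.05 to 8.79 (median 8.34), rose by 2.08 ± 0.17 (adjusted p 6.78e-07) and was above all 8 other arrays in every line. Gvin1 and Slfn2 were higher still with vector, at 9.26 and 10.44, and Car12 was at 7.47. Further rises were those of F2rl2 (1.97 ± 0.32), a thrombin receptor, Ciart (1.95 ± 0.15), a repressor of the circadian clock, and Ddc (1.94 ± 0.35), whose adjusted p of 0.000932 became 0.0514 without parental array 2. Ptgs2, the inducible cyclooxygenase, read 4.47 and 4.73 against 5.51 to 7.53 (median 6.37), a rise of 1.90 ± 0.44 (adjusted p 0.00571; 0.0879 and 0.0565 without parental array 1 or 2), and with a stricter filter on dim probe sets the difference was -0.0738. Fam185a rose by 1.30 ± 0.11 (adjusted p 7.3e-07), above all 8 other arrays.

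The largest falls named by the rule were held by genes of diverse kinds. Slc26a3, an anion exchanger, read 9.76 and 9.72 in parental cells and 4.59 to 6.46 (median 5.4) with ITD, a fall of 4.30 ± 0.30 (adjusted p 2.13e-07, 19.7-fold), and stood at 6.11 with vector and 4.81 with wild-type FLT3. F10, coagulation factor X, read 10.14 and 10.14 against 6.74 to 7.61 (median 7.11), fell by 2.95 ± 0.18 (adjusted p 6.29e-08) and lay below all 8 other arrays, whose means were 8.37, 8.75 and 8.15 with vector, wild-type FLT3 and FL. Fcnb, a ficolin of myeloid cells, fell by 3.05 ± 0.19 (adjusted p 7.43e-08), and F13a1, the coagulation factor XIII subunit of monocytes, by 2.72 ± 0.28 (adjusted p 5.5e-06). Ctse, an aspartic protease, fell by 2.71 ± 0.20 (adjusted p 2.28e-07), Cyp2b10 by 2.60 ± 0.27, Diras2 by 2.52 ± 0.27 and Cd300lb, an activating myeloid receptor, by 2.50 ± 0.21.

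Falls beyond all 8 other arrays numbered 160 among called genes, against 77 rises, and of at least 2-fold 53 against 15. Clec4b2, a C-type lectin, read 7.4 and 7.75 in parental cells and 4.29 to 5.81 (median 4.46) with ITD, fell by 2.82 ± 0.30 (adjusted p 6.95e-06) and averaged 7.26 with vector and 6.96 with wild-type FLT3. Chil1, a chitinase-like protein of neutrophils, read 9.23 and 9.07 against 6.22 to 7.47 (median 6.49), a fall of 2.56 ± 0.22 (adjusted p 1.12e-06), with 9.60 in vector cells. Hp, haptoglobin, fell by 1.92 ± 0.31 (adjusted p 0.00039), from 9.66 and 9.85 to 6.62 to 8.43 (median 7.92), and stood at 10.68 with vector. In these 3 genes the vector level was near or above that of parental cells. C3, the central complement protein, fell by 2.14 ± 0.45 (adjusted p 0.00312; 0.0526 without parental array 1) and Cd200r2 by 1.90 ± 0.43 (adjusted p 0.00488; 0.0913 without parental array 2). Members of families with close copies, such as Clec4b2, Cd200r2, Cd200r3, Gvin1 and Slfn2, may share signal with their relatives.

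Genes with 1 or 2 probe sets could be named by the rule only through the lists. Of such genes, 2 that were chosen after their values were seen gave the largest fall and the largest rise of all genes tested. Lrrc19 read 9.49 and 9.86 in parental cells and 3.3 to 4.88 (median 3.78) with ITD, a fall of 5.73 ± 0.38 (adjusted p 8.96e-08), and stood at 4.36 with vector. Gm6093, a predicted gene, rose by 4.14 ± 0.18 (adjusted p 9.26e-10), from 6.33 and 6.03 to 9.95 to 10.75 (median 10.24).

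The ITD lines varied among themselves. Over all genes the median SD was 0.199 among the 9 ITD arrays and 0.103 between the parental arrays. Genes at least 1 log2 unit above the parental mean numbered 279 (line 8) to 607 (line 4), and those as far below it 340 (line 6) to 546 (line 4). The largest SDs among genes the rule could name were those of Eif2s3y, Il2ra, Ear6, Prg3, Cd74 and Kdm5d. Eif2s3y, a translation factor gene of the Y chromosome, read 10.68 and 10.69 in parental cells and 8.87, 7.89, 6.57, 3.59, 9.28, 10.06, 4.04, 4.96 and 4.21 in lines 1 to 9 in turn. Lines 4, 7, 8 and 9 were thus at or near background and line 6 near the parental level. Its fall of 4.08 ± 1.36 only just passed (adjusted p 0.0497). It did not pass without parental array 1 (difference -4.08) or 2 (-4.07). Nor did it pass with only the 11 ITD and parental arrays (adjusted p 0.099), with no filter on dim probe sets (0.0645) or with the median of probe sets (0.053). The same held without the variance trend (0.0623), with robust variances (0.0585) and without line 2 (0.0507), 3 (0.065), 4 (0.0554), 7 (0.0573), 8 (0.0677) or 9 (0.0624). Kdm5d, a histone demethylase gene of the same chromosome, was also highest in line 6, at 7.23, and lowest in line 9, at 4.90, and fell by 2.28 ± 0.49 (adjusted p 0.00326; 0.0574 without parental array 1). Both genes were low in the other transduced cells too, at 7.53 and 5.81 with vector and 4.08 and 4.90 with wild-type FLT3. Of 3 further Y-linked genes, looked at after these values were seen, Uba1y, Ssty2 and Tspy-ps, 0 were called, with differences of 0.01 ± 0.10, -0.04 ± 0.14 and -0.26 ± 0.22. With wild-type FLT3, where Eif2s3y stood at 4.08, they averaged 6.82, 6.83 and 6.44. Whether their probe sets follow the Y chromosome in these cells was not tested.

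Cd74, the invariant chain of MHC class II, read 5.71 and 5.39 in parental cells and 6.53 to 9.95 (median 6.93) with ITD, highest in line 7, and rose by 1.79 ± 0.59 (adjusted p 0.0471). Cd74 averaged 9.54 with vector, 9.73 with wild-type FLT3 and 9.22 with FL, all above its ITD mean of 7.34. The Cd74 call was lost without parental array 1 (difference 1.95) or 2 (1.63). It was also lost with only the 11 ITD and parental arrays (adjusted p 0.0953) and with arrays centred on the median (0.0581). The same held with no filter on dim probe sets (0.0584), without the variance trend (0.0592) and without line 1 (0.0524), 4 (0.0531), 5 (0.0648) or 6 (0.0616). The class II genes it serves did not move with it: H2-Aa differed by -0.06 ± 0.17 and H2-Ab1 by 0.29 ± 0.13, neither called. Ear6, a ribonuclease of eosinophils, read 9.37 and 8.99 against 4.6 to 8.22 (median 7.45), a fall of 2.04 ± 0.68 (adjusted p 0.0477). The Ear6 call was lost without parental array 1 (difference -1.85) or 2 (-2.23). It was also lost with only the 11 ITD and parental arrays (adjusted p 0.0923) and with the median of probe sets (0.113). The same held with no filter on dim probe sets (0.0591), without the variance trend (0.0598) and without line 1 (0.0537), 2 (0.0613), 4 (0.0515), 6 (0.0614) or 8 (0.0612).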

How the data were processed

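RNA of 17 cultures was hybridised to Mouse Exon 1.0 ST arrays of Affymetrix. The authors deposited log2 signals per probe set. The submitters' processing notes name RMA and Affymetrix Expression Console 1.1. RMA brings all arrays to 1 distribution, so a change that shifts most genes cannot be read. No scanner files were used here, and the genome build is not given in the sources used here.

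Probe sets were named through the platform annotation, and those with several symbols (6684) or none (931387) were left out. Symbols were updated through a RefSeq table (18006 current, 4227 changed, 63 kept). Probe sets whose 17-array mean exceeded 4.599 (the median row mean) were kept, which left 237584 probe sets and 20227 genes with a median of 9 probe sets each. Array medians lay between 4.63 and 4.69, and precision is limited by the number of arrays.

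The 5 group means were fitted in R 4.3.3 with lmFit and trended eBayes of limma 3.58.1 and the contrast ITD minus parental was tested two-sided. All groups share 1 spread with 12 residual degrees of freedom, of which the parental pair gives 1 and the ITD lines, each a different mutant, 8; the prior adds 4.49. The fit was tested on simulated data. Lists are described by counts and medians, with no list test. The rule for named genes took Flt3, the 14 largest rises and 14 largest falls among called genes with all ITD arrays beyond both parental arrays, at least 3 probe sets and a group mean of at least 6, up to 4 called members of each of 27 lists, 8 rises and 8 falls beyond all 8 other arrays, and the 6 genes of largest SD. It gave 111 genes, some of which appear only in counts, and 34 were added after their values were seen. Members and lists were chosen with earlier results of these data known. Motifs were searched in RefSeq promoters of 300 bases. Alternatives covered normalization, filters, probe set summary, variance model and leaving out each array.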

Additional observations from a re-analysis of the deposited data

Results flagged for a closer look

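For 172 sets of values over the 9 ITD lines (named genes and list means), the gap between the most extreme line and its neighbour was set against the whole range. In 19 sets it was above Dixon's limit for 9 samples. Chance alone flags about 1 in 20 of separate, unselected sets. The sets here share genes, and some genes were picked for a large SD over these lines or after their values were seen. The 19 flags can therefore not be set against that rate. The lines concerned were 4, 5, 6, 7 and 9.

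Line 7 was apart in 7 sets. It was highest for Cd74 (9.95; next line 8.0) and Ccl4 (7.07; next 6.23) and for the mean of the ERK feedback list (7.62; next 7.49), and lowest for Gata1 (7.55; next 8.77), Klf1 (6.3; next 7.29), Ccne2 (7.16; next 7.77) and Mcm10 (7.99; next 8.26). Line 4 was lowest for Cish (8.09; next 9.01), the STAT-induced inhibitor, and for Adgre1 (7.19; next 8.17), and highest for the integrin gene Itgb3 (9.44; next 8.04). Line 9 was highest for the cholesterol synthesis genes Sqle (10.73; next 10.15) and Fdps (9.29; next 8.87), and lowest for Itgb2 (10.49; next 10.87) and the FLT3 ligand gene Flt3l (8.47; next 8.92). Line 6 was highest for 3 genes that fell in the ITD lines as a group: Fcnb (6.21; next 5.61), F13a1 (6.2; next 5.43) and Chil1 (7.47; next 6.77). Line 5 was highest for Nupr1 (10.76; next 9.59) and lowest for Prg2 (7.96; next 9.87). Each line is 1 array, and whether these values belong to the mutant, the line or the array was not tested.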

How the results depend on the processing

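The counts of called genes moved most when 1 of the 2 parental arrays was left out. Without parental array 1, 1760 genes were called (1191 higher, 569 lower) and without parental array 2, 1400 (774 higher, 626 lower), against 3439 (2080 higher, 1359 lower); of these, 1679 and 1358 were called in the same direction with all arrays. Leaving out a single ITD line gave 3127 to 3897 calls (1875 to 2402 higher, 1245 to 1495 lower; lowest in total without line 6 and highest without line 7), and the other alternatives 2595 (only the 11 ITD and parental arrays) to 3766 (stricter filter). Fewer arrays enter the fits that leave arrays out. Calls were more numerous than with all arrays without line 4 (3538), 7 (3897), 8 (3510) or 9 (3677). The cause of these shifts was not tested. Of 137 named genes that were called, 79 kept direction and call under each of the 20 alternatives they had a value for, 135 kept their direction, and 79 were called both without parental array 1 and without parental array 2. Ptgs2 turned to -0.0738 with a stricter filter on dim probe sets, and Fzd1 to -0.0144 with no filter. With only the 11 ITD and parental arrays, some calls near the threshold were lost. Those of Ltf (adjusted p 0.0737) and Itgam (0.0925) were among them. No paired analysis was possible because the ITD arrays are different mutants that carry no replicate number. The 2 parental arrays limit the precision of each difference, and values near background understate a fall.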
